A study of Mus musculus with 4 samples.

Results

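The 4 mature miR-486 products of the mouse, mmu-miR-486a-5p, mmu-miR-486b-5p, mmu-miR-486a-3p and mmu-miR-486b-3p (written below without mmu), were followed in small RNA libraries made from plasma exosome preparations. The members were chosen by name and are 4 of the 1809 miRNAs listed for all 4 libraries. The gp49B KO mice were C57BL/6 with the genotype gp49B-/- and lack an inhibitory receptor of myeloid cells, and the WT mice were wild-type C57BL/6. Lewis lung carcinoma (LLC), a tumour line from C57BL/6 mice, had been given into a vein of every mouse of both groups, and plasma was taken on day 21. No tumour-free mice were analysed here, and the sources used here give no ages. Each genotype had 2 libraries, pool 1 and pool 2, each made from a pool of 4 plasma samples in gp49B KO and of 3 in WT, so the number pooled followed genotype. Exosomes were taken down from plasma with a precipitation reagent, which also carries other plasma particles and RNA-binding proteins. Genotype was taken from the labels alone, as mRNA of the deleted gene was not analysed here.

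As background, miR-486 lies within Ank1, which encodes the red cell membrane skeleton protein ankyrin 1, and it is among the most abundant miRNAs of red blood cells. It is also expressed in skeletal and cardiac muscle. A miRNA hairpin gives a 5p and a 3p product, named by their place on it. For miR-486 the 5p product is the one that mainly persists in cells. Its duplex is almost fully paired, and slicing by Argonaute 2 removes the 3p strand in red cell precursors. Plasma collects RNA of many sources, including red cells broken during sampling. In such bulk material, fewer cells of a type and less RNA per cell cannot be told apart.

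Both copies occupy the same stretch of DNA on opposite strands (chromosome 8, GRCm38). The plus strand carries miR-486a-5p at 23142587 to 23142608 and miR-486a-3p at 23142629 to 23142649, inside the Mir486 precursor at 23142555 to 23142682. On the minus strand miR-486b-5p lies at 23142627 to 23142648 and miR-486b-3p at 23142587 to 23142606, inside the precursor that GENCODE M21 names Mir3107 (23142573 to 23142662). Each arm therefore lies across from the opposite arm of the other copy, with 20 bases of overlap in both pairs. The site falls in introns of Ank1 on the plus strand and of the antisense transcript gene Gm15816 on the minus strand, and 0 exons of either gene cover the arms. The 5p products of both copies are known to share 1 mature sequence, so the division of reads between the "a" and "b" names is uncertain, and sums over both copies are given beside the single values.

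**Figure D1:**
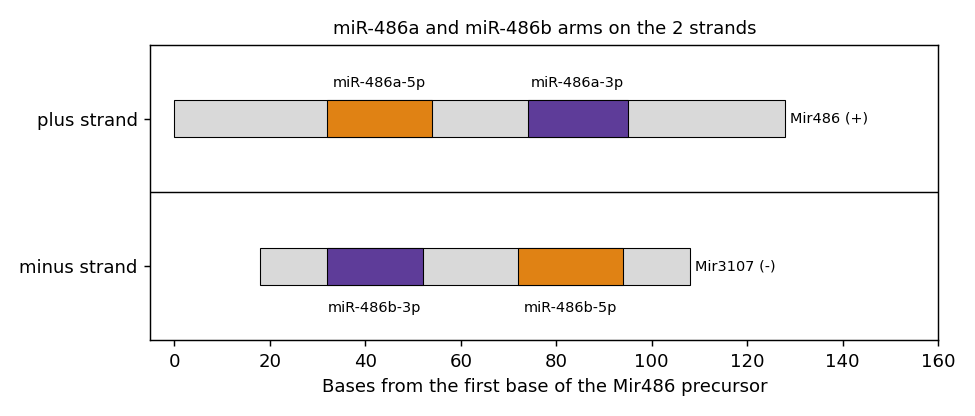
Map of the locus, with the distance in bases from the first base of the Mir486 precursor on the horizontal axis and the 2 strands on the vertical axis; grey bars are precursors, orange bars 5p arms and purple bars 3p arms. The miR-486a arms on the plus strand face the opposite arms of miR-486b on the minus strand, with 20 bases of overlap each.

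A further 4 miRNAs serve below as yardsticks for red cell RNA, and their mature sequences are given to show that they are separate from one another in the seed, the bases 2 to 8 that pair with targets (in capitals; RefSeq, GRCm38.p6). The first pair comes from 1 erythroid cluster on chromosome 11, miR-16-5p is abundant in all blood cells, and miR-23a-3p, which is used as a plasma reference because red cells hold little of it, is the denominator of a common haemolysis index.
miR-451a: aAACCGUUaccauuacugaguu
miR-144-3p: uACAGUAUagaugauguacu
miR-16-5p: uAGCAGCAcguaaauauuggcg
miR-23a-3p: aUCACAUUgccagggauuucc

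Unique molecular identifiers (UMIs) tag single RNA molecules before amplification, and counts below are UMIs unless reads are named. The libraries held 1729201 and 3645842 UMIs in gp49B KO pools 1 and 2, against 1607218 and 3179081 in WT pools 1 and 2. Reads per UMI came to 5.70 and 2.11 in gp49B KO pools 1 and 2, against 5.29 and 1.69 in WT pools 1 and 2. Feature lists also differed by pool number, and no nonzero count fell below 10 in pool 1 of either genotype, where pool 2 held counts down to 2 in gp49B KO and 1 in WT. Values are therefore given within each pool number as well as together. The labels do not say whether a pool number stands for a day or batch, and p-values measure only the spread between these pools.

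miR-486 made up a large part of every library, and its share followed pool number more than genotype. Together the 4 products took 8.40% (exact Clopper-Pearson 95% interval 8.36 to 8.44%) and 18.0% of miRNA UMIs in gp49B KO pools 1 and 2, against 11.2% and 18.6% in WT pools 1 and 2. The mean share was 13.2 ± 6.77% over gp49B KO libraries and 14.9 ± 5.22% over WT libraries (SD, n = 2 each). The difference of -1.72 percentage points was smaller than either SD (two-sided exact permutation test, p = 0.667, with n = 2 each and a smallest possible p of 0.333). Intervals on counts here and below cover counting error only.

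Most of this was mmu-miR-486b-5p, which ranked 3 by UMIs in each of the 4 libraries. It had 108603 and 545179 UMIs in gp49B KO pools 1 and 2, against 134024 and 496436 in WT pools 1 and 2. As a share this was 6.35% and 15.02% in gp49B KO, against 8.49% and 15.66% in WT. The groups overlapped, with both pool 1 libraries low and both pool 2 libraries high.

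The other 5p name, mmu-miR-486a-5p, followed the same order at a lower level. Its counts were 24449 and 91130 UMIs in gp49B KO pools 1 and 2, against 30080 and 80729 in WT pools 1 and 2. That placed it at ranks 14 and 5 in gp49B KO and 6 and 5 in WT, and its shares of 1.43% and 2.51% in gp49B KO overlapped those of 1.91% and 2.55% in WT.

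The 3p products, the strand removed from the miR-486 duplex in red cell precursors, were the scarcer arms. mmu-miR-486a-3p had 6448 and 10697 UMIs in gp49B KO pools 1 and 2, against 7826 and 8010 in WT pools 1 and 2. For mmu-miR-486b-3p the counts were 4159 and 5506 in gp49B KO, against 5054 and 4361 in WT. As shares of miRNA UMIs both 3p products ran the other way from the 5p products. They were higher in pool 1 than in pool 2 in each genotype, at 0.377% and 0.295% in gp49B KO and 0.496% and 0.253% in WT for miR-486a-3p, and at 0.243% and 0.152% in gp49B KO and 0.320% and 0.138% in WT for miR-486b-3p. This order depended on the unit and on scaling. As shares of miRNA reads, miR-486a-3p had 0.0939% and 0.178% in gp49B KO pools 1 and 2, against 0.128% and 0.172% in WT. For miR-486b-3p the read shares were 0.0575% and 0.0834% in gp49B KO, against 0.0831% and 0.0915% in WT. By reads both 3p products were thus higher in pool 2. After TMM scaling, which sets libraries to a common level on the bulk of the miRNAs, miR-486a-3p had 2510 and 4309 CPM (UMIs scaled to a common total) in gp49B KO pools 1 and 2, against 2925 and 4403 CPM in WT. For miR-486b-3p the values were 1619 and 2218 CPM in gp49B KO, against 1889 and 2397 CPM in WT, so that both were then higher in pool 2 than in pool 1.

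**Figure D2:**
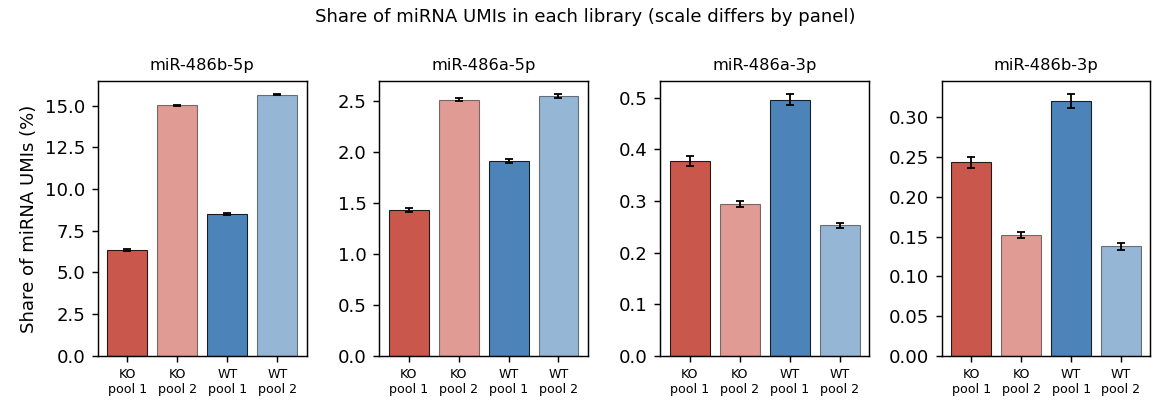
Share of miRNA UMIs in percent (vertical axis, a separate scale for each panel, from 0) of the 4 miR-486 products in each library; bars are single libraries and error bars exact 95% intervals for counting error. By UMIs the 5p shares were higher in pool 2 than in pool 1 and the 3p shares lower, in both genotypes. After TMM scaling, or as shares of reads, all 4 products were higher in pool 2.

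Across all libraries, gp49B KO and WT did not separate for any of the 4 products. After TMM scaling, miR-486b-5p averaged 130951 ± 125400 CPM over gp49B KO libraries and 161490 ± 157547 CPM over WT libraries (SD, n = 2 each). Its log2 fold change was -0.30 (SE 1.31), with a Benjamini-Hochberg adjusted p of 0.99995 in edgeR's quasi-likelihood test. miR-486a-5p averaged 23115 ± 19228 CPM over gp49B KO libraries and 27809 ± 23430 CPM over WT libraries (SD, n = 2 each). The estimates were -0.27 (SE 1.07) for miR-486a-5p, -0.10 (SE 0.74) for miR-486a-3p and -0.16 (SE 0.68) for miR-486b-3p, each with the same adjusted p of 0.99995. None of the 4 passed, and 0% of the 1797 miRNAs tested were called (0 at an adjusted p under 0.05, 32 at an unadjusted p under 0.05; limma-voom and DESeq2 also called 0, with 27 and 28). Groups that did not overlap were seen for 0 of the 4 products, where 11.6% of all tested miRNAs lay wholly lower and 9.52% wholly higher in gp49B KO. The direction of all 4 estimates depended on which libraries entered. Without gp49B KO pool 1 they were 0.42 for miR-486a-5p, 0.47 for miR-486b-5p, 0.25 for miR-486a-3p and 0.067 for miR-486b-3p, and without WT pool 2 they were 1.04, 1.39, 0.22 and 0.02. Each omission leaves a genotype with a single pool number, so these fits cannot tell genotype from pool number. After TMM scaling all 4 products were higher in pool 2 than in pool 1 in both genotypes.

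Within pool numbers the members were somewhat lower in gp49B KO than in WT once scaled by TMM, by similar factors in pool 1. In pool 1 the gp49B KO over WT ratio of TMM-scaled UMIs was 0.844 (exact 95% interval 0.837 to 0.851) for miR-486b-5p, 0.847 (0.833 to 0.861) for miR-486a-5p, 0.858 (0.830 to 0.887) for miR-486a-3p and 0.857 (0.823 to 0.893) for miR-486b-3p. The 4 ratios of this pool were thus nearly the same. Since the 5p products share 1 mature sequence, the likeness of their 2 ratios carries no separate information. In pool 2 the 5p ratios were 0.805 (0.802 to 0.808) for miR-486b-5p and 0.827 (0.819 to 0.835) for miR-486a-5p, and the 3p ratios 0.979 (0.951 to 1.01) for miR-486a-3p and 0.925 (0.889 to 0.963) for miR-486b-3p. All 4 were below 1 in both pools with this scaling, where 27.1% of 1780 tested miRNAs with counts in all libraries were, while 24.5% were above 1 in both pools, among them 0 of the 4. Among the 352 miRNAs that averaged at least 100 UMIs, 22.2% were below 1 and 30.7% above 1 in both pools. On the log2 scale of the authors' deposited values, miR-486b-5p stood at 16.76 and 18.85 in gp49B KO pools 1 and 2, against 17.00 and 19.14 in WT, again lower in gp49B KO in each pool. With 1 library per genotype in a pool there is no replicate check of these ratios.

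Scaling on total UMIs changed the picture in pool 2. There the ratios became 0.959 for miR-486b-5p, 0.986 for miR-486a-5p, 1.17 for miR-486a-3p and 1.10 for miR-486b-3p, so that both 3p products were higher in gp49B KO. In pool 1 they were 0.748, 0.750, 0.760 and 0.759. Below 1 in both pools were 2 of the 4 products, against 20.8% of all, and above 1 in both pools were 0 of the 4, against 24.4% of all. Among the 352 miRNAs that averaged at least 100 UMIs the shares were 14.2% below 1 and 33.8% above 1. This scaling put the median ratio of all tested miRNAs at 0.880 in pool 1 and 1.18 in pool 2, against 0.994 and 0.989 with TMM. Divided by the median of its own scaling, a ratio is the same under either scaling. For both 5p products summed this value was 0.850 in pool 1 and 0.817 in pool 2, and for both 3p products 0.863 and 0.971. The pool 2 values of the 3p products also depended on the unit. As shares of miRNA reads, miR-486a-3p had 0.178% in gp49B KO against 0.172% in WT there, and miR-486b-3p 0.0834% against 0.0915%.

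**Figure D3:**
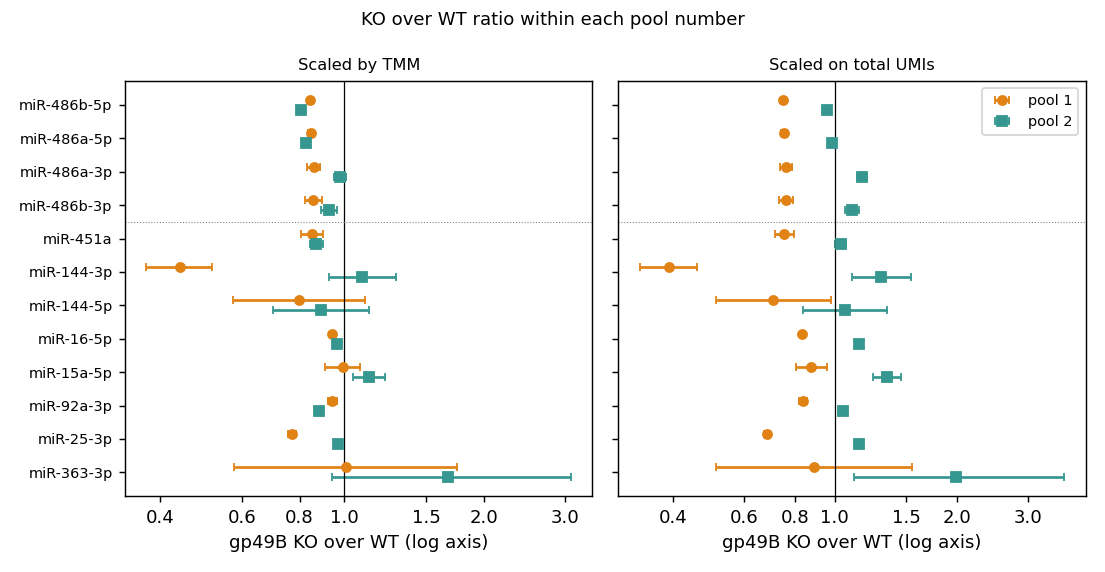
Ratio of gp49B KO over WT within pool 1 (circles) and pool 2 (squares), on a log axis, after TMM scaling (left) and scaling on total UMIs (right); the 4 miR-486 products stand above the dotted line and the 8 erythroid-list miRNAs below it, with exact 95% intervals for counting error. With TMM all 4 products lie below 1 in both pools, and with total UMIs the 3p products of pool 2 lie at 1.17 and 1.10.

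The 5p to 3p ratio compares the arms inside 1 library and needs no scaling. In UMIs, summed over both copies, it was 12.5 (exact 95% interval 12.3 to 12.8) and 39.3 (38.7 to 39.9) in gp49B KO pools 1 and 2, against 12.7 (12.5 to 13.0) and 46.7 (45.8 to 47.5) in WT pools 1 and 2. It was thus alike in the genotypes within pool 1 and separated by pool number. On the log2 scale the mean ratio was 4.47 ± 1.16 over gp49B KO libraries and 4.61 ± 1.32 over WT libraries (SD, n = 2 each), a difference of -0.14 (two-sided exact permutation test, p = 0.667).

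The ratio was 3.13-fold higher in pool 2 than in pool 1 in gp49B KO and 3.66-fold higher in WT. It was larger for the b name than for the a name throughout. For miR-486b it was 26.1 and 99.02 in gp49B KO pools 1 and 2, against 26.5 and 114 in WT. For miR-486a it was 3.79 and 8.52 in gp49B KO, against 3.84 and 10.1 in WT.

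Other hairpins shifted between pool numbers in both directions. Among 305 hairpins with at least 20 UMIs on each arm in every library, the median log2 change of the 5p to 3p ratio between pool 2 and pool 1 was 0.05 in gp49B KO and 0.07 in WT, with 118 hairpins up and 105 down in both genotypes. The median size of the change, whatever its sign, was 0.66 in gp49B KO and 0.68 in WT. Larger rises than that of miR-486b (log2 change 1.92 in gp49B KO and 2.10 in WT) were found in 10 hairpins in each genotype, and falls of larger size in 10 in gp49B KO and 7 in WT. For miR-486a, at 1.17 in gp49B KO and 1.39 in WT, 47 and 32 hairpins rose more, and 26 and 22 fell by more. Between genotypes the ratio moved little: in pool 1 the log2 difference was 0.020 in size for miR-486a and 0.022 for miR-486b, and 295 hairpins differed more than miR-486a and 293 more than miR-486b. In pool 2 the sizes were 0.24 and 0.20, below the median size of 0.36 over all hairpins. Of the 305 hairpins 20% had genotypes that did not overlap, in either direction, and neither copy of miR-486 was among them.

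Counting reads in place of UMIs gave higher and more even arm ratios. Summed over copies, the read ratio was 46.6 and 63.0 in gp49B KO pools 1 and 2, against 44.8 and 66.1 in WT pools 1 and 2. Pool 2 then exceeded pool 1 by 1.35-fold in gp49B KO and 1.47-fold in WT. By reads 88 hairpins in gp49B KO and 78 in WT rose more between pool numbers than miR-486b. The level and the pool difference of the arm ratio therefore depended on the unit, while the genotypes overlapped in both units.

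**Figure D4:**
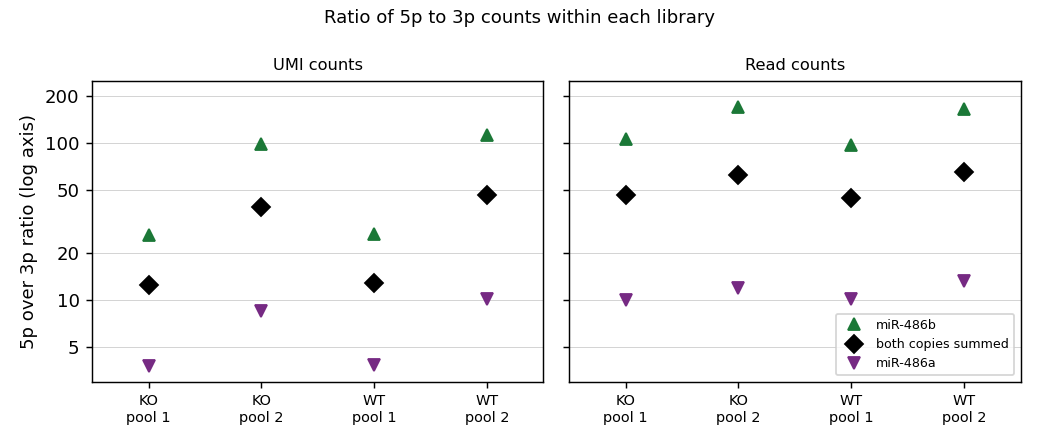
Ratio of 5p to 3p counts (log axis) in each library, from UMIs (left) and reads (right), for miR-486b (upward triangles), miR-486a (downward triangles) and both copies summed (diamonds). By UMIs the summed ratio is 12.5 and 12.7 in the pool 1 libraries and 39.3 and 46.7 in the pool 2 libraries, and by reads all 4 libraries lie between 44.8 and 66.1.

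The units differ in that the 3p products had few reads per UMI. For miR-486a-3p there were 1.42 and 1.28 reads per UMI in gp49B KO pools 1 and 2, against 1.37 and 1.15 in WT pools 1 and 2. miR-486b-3p had 1.35 and 1.16 in gp49B KO, against 1.37 and 1.12 in WT. By contrast miR-486b-5p had 5.49 and 2.02 in gp49B KO, against 5.09 and 1.63 in WT, close to the values of the whole libraries. The other 5p name, miR-486a-5p, stood between at 3.73 and 1.80 in gp49B KO, against 3.59 and 1.502 in WT. UMIs counted under the 3p names thus held little more than 1 read each, while those of miR-486b-5p in the same libraries held about as many as the rest.

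Ranked by reads per UMI relative to the library, averaged over the 4 libraries, miR-486b-3p was number 2 from the bottom and miR-486a-3p number 7 of the 352 miRNAs that averaged at least 100 UMIs, at 0.428 and 0.448 of the library value. The median of the 352 was 1.06. A position shared by miR-486 with a few others was looked at after these values were seen. The arms of 14 of the 352 miRNAs overlap another listed miRNA on the opposite strand by at least 15 bases. In the 7 with fewer UMIs than their antisense partner, reads per UMI were 0.428 to 0.593 of the library value. These are both miR-486 3p products, miR-126b-3p, miR-126b-5p, miR-1b-5p, miR-3074-5p and miR-142b. In the 7 with more UMIs than their partner, the range was 0.768 to 1.12, with miR-486a-5p lowest at 0.768 and miR-486b-5p next at 0.962. Low values also occurred without such a partner, the lowest being miR-16-2-3p, the 3p arm of a miR-16 hairpin, at 0.397. The 10 lowest values held 6 of the 338 miRNAs without such a partner and 4 of the 14 with one. What sets reads per UMI was not tested.

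**Figure D5:**
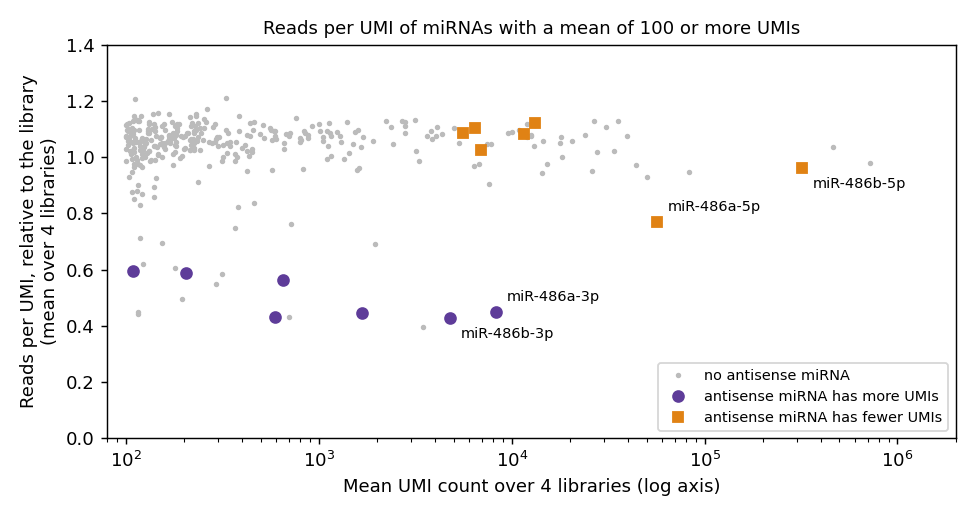
Reads per UMI divided by the value of the whole library, averaged over 4 libraries (vertical axis), against mean UMI count (log axis), for 352 miRNAs; purple circles have an antisense miRNA with more UMIs, orange squares one with fewer, and grey points none. The miR-486 3p products lie at 0.428 and 0.448 and the 5p products at 0.768 and 0.962.

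The division of the 5p counts between the names also followed pool number and unit. There were 4.44 and 5.98 UMIs of miR-486b-5p per UMI of miR-486a-5p in gp49B KO pools 1 and 2, against 4.46 and 6.15 in WT pools 1 and 2. In reads the figures were 6.54 and 6.72 in gp49B KO, against 6.31 and 6.68 in WT, which is nearly constant. Between genotypes the log2 difference by UMIs was -0.02 (two-sided exact permutation test, p = 0.667, n = 2 each). In the 3p arms the b name was the scarcer one by UMIs, at 0.645 and 0.515 of miR-486a-3p in gp49B KO, against 0.646 and 0.544 in WT. Each 3p arm lies across from a 5p product of the shared sequence over 20 bases, so the division of the 3p counts is uncertain too.

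Other miRNAs known from red cells showed how far miR-486 moved with them. miR-451a, which is matured by Argonaute 2 without Dicer and is a defining miRNA of red cells, had 2396 and 8636 UMIs in gp49B KO pools 1 and 2, against 2938 and 7281 in WT pools 1 and 2. Its TMM-scaled ratio was 0.850 (0.805 to 0.897) in pool 1, where the miR-486 5p products had 0.844 and 0.847, and 0.869 (0.842 to 0.897) in pool 2, where they had 0.805 and 0.827. Counts of the 5p products were 55.5 and 73.7 times those of miR-451a in gp49B KO, against 55.9 and 79.3 times in WT, a log2 difference of -0.06 (two-sided exact permutation test, p = 0.667, n = 2 each). The 4 exact tests on shares and ratios, adjusted together by Benjamini-Hochberg, each had an adjusted p of 0.667.

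Ratios of the other erythroid miRNAs were more varied. miR-144-3p, from the same cluster as miR-451a, had 214 and 358 UMIs in gp49B KO, against 506 and 240 in WT, and its ratio was 0.441 (0.374 to 0.518) in pool 1, with 1.09 (0.926 to 1.29) in pool 2. miR-144-5p, the other arm, had ratios of 0.799 (0.575 to 1.11) and 0.891 (0.702 to 1.13). miR-16-5p, the most abundant miRNA by mean, had ratios of 0.939 (0.936 to 0.943) and 0.965 (0.962 to 0.968), and the miR-486 5p count was 0.264 and 0.615 of it in gp49B KO, against 0.294 and 0.735 in WT. For miR-25-3p the ratios were 0.770 and 0.967, and for miR-92a-3p 0.942 and 0.880. miR-15a-5p had ratios of 0.990 and 1.13. For miR-363-3p, on only 18 to 41 UMIs, they were 1.01 and 1.67, with intervals that held 1 in both pools. Of the 8 listed miRNAs, 0 were called by edgeR in either direction. Below 1 in both pools were 5 of 8 with TMM, against 27.1% of all tested miRNAs, and 0 of 8 with total UMIs, against 20.8% of all. With total UMIs all 8 were lower in gp49B KO in pool 1 and 0 in pool 2. The median ratio of all tested miRNAs moved the same way with this scaling, at 0.880 in pool 1 and 1.18 in pool 2. That of the 8 was 0.792 and 1.15. The median log2 fold change of the 8 in edgeR was -0.15, against -0.03 over all miRNAs tested.

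The haemolysis index, the count of miR-451a over that of miR-23a-3p, was 0.173 and 0.805 in gp49B KO pools 1 and 2, against 0.367 and 0.976 in WT pools 1 and 2. For the miR-486 5p products over miR-23a-3p the values were 9.59 and 59.3 in gp49B KO, against 20.5 and 77.4 in WT. The second holds miR-486 in its numerator and so carries no separate information on it. The denominator also differed, with 13867 and 10729 UMIs of miR-23a-3p in gp49B KO, against 8007 and 7461 in WT. Its TMM-scaled ratio of gp49B KO over WT was 1.80 in pool 1 and 1.05 in pool 2, where that of miR-451a was 0.850 and 0.869. With TMM the gap between genotypes thus lay more in miR-23a-3p in pool 1 and more in miR-451a in pool 2. Scaled on total UMIs, the ratios in pools 1 and 2 were 1.60 and 1.26 for miR-23a-3p and 0.753 and 1.04 for miR-451a. The gap then lay more in miR-23a-3p in both pools. The miR-451a index was lower in gp49B KO in each pool and higher in pool 2 in each genotype, as was the 5p share of miR-486, and the part of haemolysis in that share was not tested.

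miRNAs of muscle, the other tissue known for miR-486, were high in 1 library. The 7 muscle miRNAs together took 3.74% and 0.693% of miRNA UMIs in gp49B KO pools 1 and 2, against 0.416% and 0.430% in WT, with 0 of the 7 at a count of 0 in any library. In pool 1 the ratios were 20.8 for miR-206-3p and 7.94 for miR-1a-3p, where those of the miR-486 products were 0.844 to 0.858. In pool 2 they were 2.03 and 0.969. Over the list, 6 of 7 ratios were above 1 in pool 1, with a median of 6.34, and 2 of 7 in pool 2, with a median of 0.914. The medians over all tested miRNAs were 0.994 in pool 1 and 0.989 in pool 2. From this list miR-208a-3p, miR-208b-3p and miR-499-5p were named after their values were seen. On 53 to 68 UMIs in pool 1, their TMM-scaled ratios had intervals that held 1. In that order the ratios were 0.876 (0.596 to 1.28), 1.11 (0.772 to 1.59) and 1.26 (0.875 to 1.83). The part of muscle RNA in the level of miR-486 was not tested. Of the 7, 0 were called by edgeR in either direction.

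Markers of other sources also varied. The 2 arms of the hepatocyte miRNA miR-122 took 7.06% and 19.7% in gp49B KO pools 1 and 2, against 10.6% and 26.6% in WT, nearly all of it miR-122-5p, whose TMM-scaled ratios were 0.755 and 0.620. The shares of the 3 myeloid markers were 4.60% and 1.12% in gp49B KO, against 2.18% and 1.14% in WT, and those of the 2 arms of miR-126a, found in endothelium and platelets, 0.922% and 0.339% in gp49B KO, against 0.587% and 0.339% in WT. The hepatocyte shares thus ran with miR-486 across libraries, and their part in its level was not tested. In these 3 lists 0 miRNAs were called by edgeR, and 0 were at a count of 0 in any library.

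Among 351 other miRNAs averaging at least 100 UMIs, the profiles over the 4 libraries most like that of miR-486b-5p were those of miR-106b-3p, miR-486a-5p, miR-122-5p, miR-375-3p and miR-451a. The measure was the root mean square difference of centred log2 TMM-scaled values, which was 0.073, 0.22, 0.23, 0.24 and 0.27 for them. By UMIs, the unit used, the 3p products stood much further off, at 0.87 for miR-486a-3p (place 99) and 1.01 for miR-486b-3p (place 148). The distance by reads was not computed. By UMIs, miR-486b-5p over miR-486a-3p was 3.03-fold higher in pool 2 than in pool 1 in gp49B KO and 3.62-fold in WT. By reads it was 1.23-fold and 1.38-fold higher. For miR-486b-5p over miR-486b-3p these figures were 3.79 and 4.29 by UMIs, against 1.61 and 1.69 by reads. Closest was miR-106b-3p, the 3p arm of a hairpin in an intron of Mcm7, with 756 and 3621 UMIs in gp49B KO pools 1 and 2, against 878 and 3705 in WT pools 1 and 2. miR-375-3p, a miRNA of pancreatic islets and gut epithelium, had 499 and 1816 UMIs in gp49B KO, against 578 and 1542 in WT. With 4 libraries that share depth and pool number, this likeness is a description.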

How the data were processed

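Plasma exosomes were precipitated with ExoQuick and libraries made with the QIAseq miRNA kit, per the labels' protocols. The authors deposited raw UMI counts and raw read counts of mature miRNAs, and log2 values scaled by 1 constant per library. Per the submitters' processing notes, the tools included FastQC 0.11.9 and the build was GRCm38/mm10. The aligner, the counter, its strand setting and how it divided reads between near-identical copies: not given in the sources used here.

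UMI counts of the 1809 miRNAs listed in all 4 libraries were tested with edgeR 4.0.16 in R 4.3.3 (default expression filter, TMM, quasi-likelihood test, p adjusted over 1797 miRNAs by Benjamini-Hochberg, threshold 0.05). The fit had 2 residual degrees of freedom. TMM factors were 1.503 and 0.684 in gp49B KO pools 1 and 2, and 1.70 and 0.574 in WT. Shares and ratios used exact permutation tests over the 6 splits. Ratios within pools carry exact binomial 95% intervals (SciPy 1.17.1, Python 3.11.15, pandas 2.3.3). Alternatives used limma 3.58.1 and DESeq2 1.42.0.

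The members and lists were chosen with earlier results of these data known. The miRNAs named by plan were the members, the erythroid list, the 5 nearest profiles and up to 2 of each other list by mean UMIs. Added after their values were seen were miR-208a-3p, miR-208b-3p and miR-499-5p, and those named for their reads per UMI. The erythroid list was miR-451a, miR-144-3p, miR-144-5p, miR-16-5p, miR-15a-5p, miR-92a-3p, miR-25-3p and miR-363-3p. The planned naming of miRNAs by shared seed was not used. Sequences of the 4 comparison miRNAs are RefSeq's (GRCm38.p6), and positions of the members are the deposited loci, annotated with GENCODE M21 on the same build.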

Additional observations from a re-analysis of the deposited data

Results flagged for a closer look

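With scaling on total UMIs, the gp49B KO over WT ratio of both 3p products pointed in opposite directions in the pool numbers. For miR-486a-3p it was 0.760 in pool 1 and 1.17 in pool 2, and for miR-486b-3p 0.759 in pool 1 and 1.10 in pool 2. As a share of miRNA reads, miR-486b-3p was lower in gp49B KO in both pools, at 0.0575% against 0.0831% and 0.0834% against 0.0915%. By reads miR-486a-3p still turned, at 0.0939% in gp49B KO against 0.128% in WT in pool 1 and 0.178% against 0.172% in pool 2. The difference between pool numbers was not tested, since each pool has 1 library per genotype.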

How the results depend on the processing

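The 4 estimates for gp49B KO over WT kept a negative sign and an adjusted p above the threshold under other scalings and filters, limma-voom, DESeq2, read counts, the authors' log2 values and the pool number as a block. Leaving out 1 library gave log2 fold changes of -1.55 to 1.04 for miR-486a-5p, -1.94 to 1.39 for miR-486b-5p, -0.55 to 0.25 for miR-486a-3p and -0.41 to 0.067 for miR-486b-3p, and 0 to 3 miRNAs called (2 without WT pool 2, 3 without gp49B KO pool 2). In such fits the lone library of a genotype is assumed to vary like the others, and its pool number cannot be told apart from genotype. The same 2 omissions that turned these signs, of gp49B KO pool 1 and of WT pool 2, turned those of the shares and ratios: ranges were -6.50 to 3.07 percentage points for the share, and on the log2 scale -1.07 to 0.80 for the arm ratio, -0.25 to 0.21 for miR-486b-5p over miR-486a-5p and -0.31 to 0.20 for the 5p products over miR-451a. By reads, miR-486b-5p over miR-486a-5p differed by 0.029. Causes were not tested.

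With pool number as a replicate block the estimates were -0.26 (SE 0.24), -0.28 (SE 0.22), -0.13 (SE 0.27) and -0.17 (SE 0.27) for miR-486a-5p, miR-486b-5p, miR-486a-3p and miR-486b-3p, and 0 miRNAs were called (78 at an unadjusted p under 0.05), on 1 residual degree of freedom. Same-numbered libraries deviated alike across miRNAs (correlation 0.535), but the labels do not say that the number pairs them.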
